A study of Mus musculus with 58 samples.

Results

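Transcript levels in quadriceps muscle were compared between 2 transgenic mouse lines, line 20b and line 41, which are both labelled CUGexp and both carry an expanded CUG repeat transgene. The members were all arrays titled Line 20b or Line 41 in experiment 1, 24 of the 58 arrays of the series, from 12 of its 34 mice (6 per line, all male, 6 months old, untreated). Each mouse was run on an Affymetrix 430A and a 430B array. The study also profiled 6 FVB wild-type mice of the same experiment and age, and, at 3 months, 3 Clcn1-null mice with 3 BALB wild types and 5 Mbnl1-null mice with 5 FVB wild types, which are used here only to place the difference between the lines. Lines of these names have been described as carrying a human skeletal actin transgene with the repeat in a non-coding part, expressed in muscle fibres. The promoter, the repeat length and the transgene level of these mice are not given in the sources used here. With 1 line on each side, the place where the transgene sits, its level and the line's own genetic history cannot be told apart.

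Expanded CUG repeat RNA is the RNA made from the mutated gene in myotonic dystrophy type 1. It collects in nuclei and binds splicing regulators of the muscleblind family, MBNL1 among them, so that muscle transcripts are spliced in a fetal way. The best known target is the muscle chloride channel CLCN1, whose loss makes fibres fire repeatedly after a contraction, the myotonia that gives the disease its name.

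A difference is line 20b minus line 41 on the log2 scale, so that 1 is a doubling, and a gene was called when limma's adjusted p was under 0.05. Of 12987 genes tested, 706 were called (5.44%), 413 higher in line 20b (3.18%) and 293 lower (2.26%). At least 2-fold apart were 66 called genes (0.508%), 40 higher and 26 lower. The 6 line 20b mice lay wholly outside the range of the 6 line 41 mice in 513 genes (3.95%), 303 higher (2.33%) and 210 lower (1.62%). The median difference of all genes tested was 0.00. When arrays were shifted to a common median, 464 genes were called higher and 192 lower, 70.7% higher against 58.5% in the reported fit. With the mean of all probe sets of a gene, 322 genes were called higher and 367 lower. With every probe set tested separately, 672 were called higher and 821 lower. The balance of higher and lower calls thus depends on the scaling and on the choice of probe set. The count of calls fell to 420 without line 20b mouse 5, 464 without line 20b mouse 6, 467 without line 41 mouse 1 and 430 without line 41 mouse 2. Against wild type, in a fit of 18 mice that shares its 6 wild types between both lines, 2508 of 13050 genes were called in line 20b (19.2%) and 1195 in line 41 (9.16%).

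**Figure D1:**
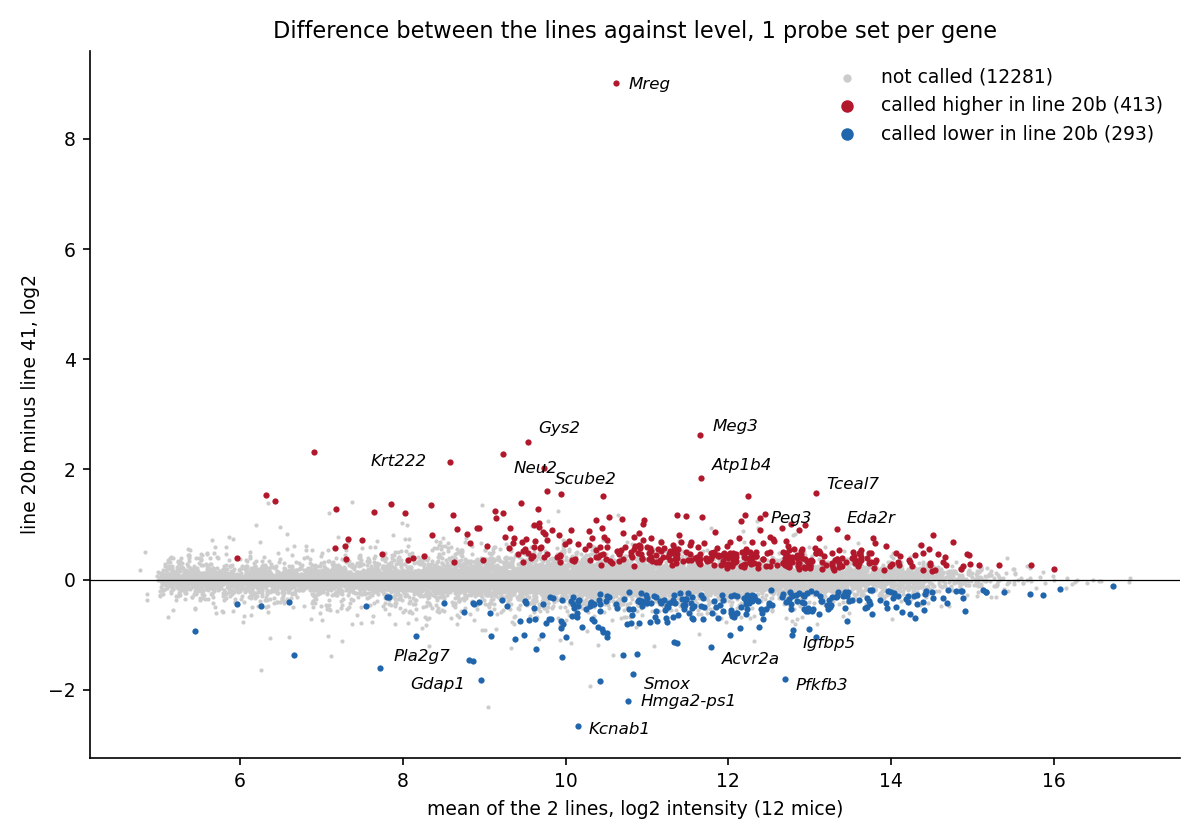
Difference between the lines (vertical axis, log2, line 20b minus line 41) against the mean level of the 12 mice (horizontal axis, log2 intensity), 1 dot per gene. Mreg stands alone at 9.02, and the other called genes, 413 higher in red with Mreg and 293 lower in blue, lie between -2.65 and 2.63.

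One mouse stood between the lines. For each mouse in turn, the genes called and at least 0.5 apart (log2) among the other 11 mice were used to place it on a scale where 0% is the mean of the other line 41 mice and 100% that of the other line 20b mice. The line 20b mice lay at 77.9% to 101.6%, and line 41 mice 1 to 5 at -9.66% to 16.6%. Line 41 mouse 6 lay at 49.3% and correlated as well with line 20b mice (median r across genes 0.990) as with its own line (0.989), where genes are not independent replicates. Its Mreg value of 6.41 nevertheless matched the low level of line 41. Without this mouse 863 genes were called (475 higher, 388 lower, 6.66%), of which 642 were among the 706, and 84 were at least 2-fold apart. Named genes below are given with all 12 mice, and no called gene among them changed direction without mouse 6; of these, Cidec lost its call (-0.96, adjusted p = 0.0590). The median SD of a gene was 0.148 among line 20b mice and 0.177 among line 41 mice, and it was larger in line 41 for 62.5% of genes.

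**Figure D2:**
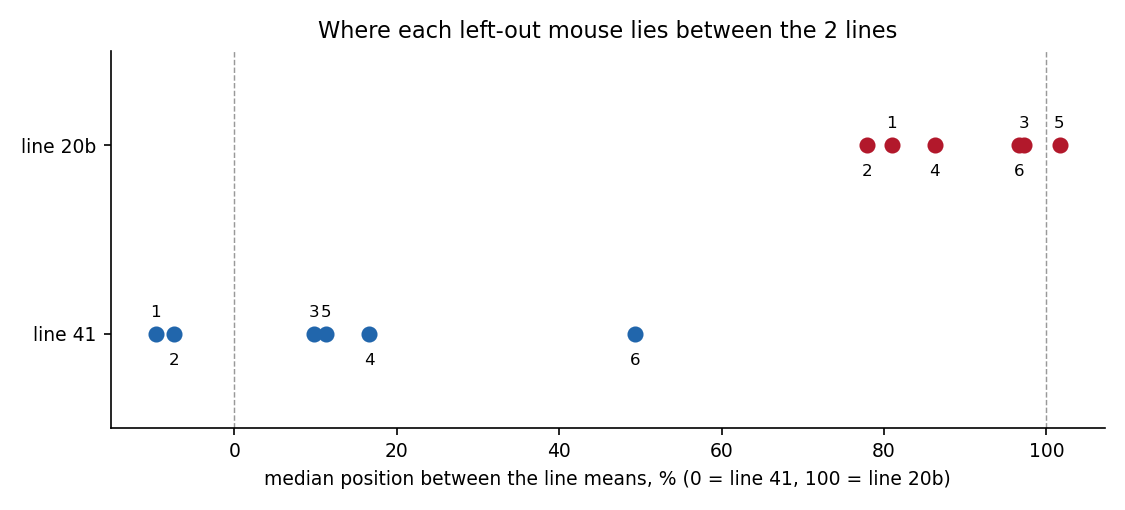
Median position of each mouse between the lines (horizontal axis, %, 0 for line 41 and 100 for line 20b), from genes called without that mouse; numbers are the mouse numbers. The other mice of each line keep to their own side, and line 41 mouse 6 lies at 49.3%.

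The tissue matched its label. The mean over 14 skeletal muscle fibre markers was 15.83 to 15.91 in line 20b, 15.86 to 15.98 in line 41 and 15.80 to 15.97 in wild type (log2). Acta1, skeletal actin, was not called (-0.06, adjusted p = 0.675). In bulk muscle, fewer cells of a type and less RNA per cell cannot be told apart.

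Promoter sequence is shown for 4 genes: Mreg, with the largest difference; Meg3, the largest increase after it; Neu2, another large increase, chosen because its promoter holds a pair of E-boxes; and Clcn1, the channel of myotonia. Each run is RefSeq's 250 bases before to 50 after a transcript start in GRCm38.p6, 5′ to 3′ on the gene's strand. Capitals mark matches, on either strand, to AAGGTCA (a nuclear receptor half-site), to CTA and TAG with 4 bases between them (a MEF2 core) or to CAGCTG (an E-box); the last reads the same on both strands. The windows are chr1:72212265-72212564 (minus strand) for Mreg, chr12:109540746-109541045 (plus) for Meg3, chr1:87594300-87594599 (plus, the third of 3 listed starts) for Neu2 and chr6:42286435-42286734 (plus) for Clcn1.
Mreg: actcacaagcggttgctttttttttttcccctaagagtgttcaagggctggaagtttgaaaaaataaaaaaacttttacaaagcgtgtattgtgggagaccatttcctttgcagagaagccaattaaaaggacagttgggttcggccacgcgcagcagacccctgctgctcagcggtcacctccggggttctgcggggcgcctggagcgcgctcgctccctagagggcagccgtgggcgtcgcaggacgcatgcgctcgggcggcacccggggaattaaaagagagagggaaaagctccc
Meg3: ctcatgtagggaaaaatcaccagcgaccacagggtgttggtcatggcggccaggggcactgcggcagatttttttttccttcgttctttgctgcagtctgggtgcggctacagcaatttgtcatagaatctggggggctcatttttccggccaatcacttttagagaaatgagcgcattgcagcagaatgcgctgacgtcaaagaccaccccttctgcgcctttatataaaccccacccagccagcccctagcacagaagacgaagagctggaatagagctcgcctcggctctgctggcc
Neu2: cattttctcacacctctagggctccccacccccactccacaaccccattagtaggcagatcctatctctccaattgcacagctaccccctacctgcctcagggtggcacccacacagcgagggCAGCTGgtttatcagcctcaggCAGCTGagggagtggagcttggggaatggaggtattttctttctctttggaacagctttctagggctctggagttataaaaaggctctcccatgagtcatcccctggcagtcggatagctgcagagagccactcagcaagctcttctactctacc
Clcn1: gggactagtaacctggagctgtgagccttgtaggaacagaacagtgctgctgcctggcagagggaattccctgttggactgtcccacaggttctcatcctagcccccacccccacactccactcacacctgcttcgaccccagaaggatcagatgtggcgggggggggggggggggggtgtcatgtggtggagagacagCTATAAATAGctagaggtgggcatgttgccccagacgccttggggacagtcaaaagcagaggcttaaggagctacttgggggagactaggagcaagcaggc
The Mreg and Meg3 windows held none of the 3 motifs, which says only that these letters are not there; a further listed start of Meg3 and one of Neu2 each held 1 AAGGTCA. Promoters were found for 10435 of the tested genes, 329 of those called higher and 239 of those called lower. CAGCTG was present in at least 1 listed promoter of 25.2% of genes called higher, 19.7% of those called lower and 18.5% of all tested. The MEF2 core was present in 5.78%, 4.6% and 4% of the same sets, and AAGGTCA in 4.26%, 3.35% and 4.15%. Among all 32851 promoters, counted singly and not by gene, the shares of CAGCTG, the MEF2 core and AAGGTCA were 16.3%, 3.69% and 4.72%. These are not the same measure as the shares of genes, since a gene can have several promoters. A match is a description of the letters and not a bound site.

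Mreg was the transcript that separated the lines most. It encodes melanoregulin, a small membrane-associated protein known from pigment granule transport. Its level (log2 intensity) was 15.02, 15.16 and 15.23 in line 20b (lowest, median, highest), 5.94, 6.10 and 6.41 in line 41, and 14.12, 14.54 and 14.78 in wild type. Every line 41 mouse was far below every other mouse, and the line 20b mice were all above the wild types. The difference of 9.02 (SE 0.08, adjusted p = 1.73e-16) is 518-fold at the probe set used. Which Mreg transcripts that probe set reads was not tested. Against wild type Mreg was lower in line 41 (-8.38, adjusted p = 1.22e-20) and higher in line 20b (0.64, adjusted p = 0.000161). It was not called in Mbnl1-null (0.25, adjusted p = 0.362) or Clcn1-null muscle (-0.08, adjusted p = 0.902).

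The gene lies at chr1:72159233-72212314 (GRCm38.p6), and its nearest measured neighbours did not share the difference. Of the 5 nearest measured genes on each side, 6 passed the filter and none was called. On the side of lower coordinates these were Abca12 (0.06), Atic (0.15) and Fn1, fibronectin (-0.05). Pecr (0.16), which begins 99.9 kb above the lower end of Mreg, Xrcc5 (-0.27) and Smarcal1 (0.09) follow on the other side. Bard1, 4933417E11Rik, Tmem169 and Marchf4 were below the filter in both lines. Adjusted p of the tested neighbours ran from 0.118 for Atic to 0.850 for Fn1. Of 11 tested genes of organelle transport, the list that Mreg belongs to, 1 was called (9.09%), Mreg itself, and the list's median was 0.08. A second member was called without line 20b mouse 2, 3 or 4 or line 41 mouse 3. By chromosome, 3.91% to 7.12% of tested genes were called, with chromosome 6 at the top. Between 70 and 80 Mb of chromosome 1, 8 of 59 tested genes were called (13.6% against 5.44% of all genes). Mreg and Igfbp5, which lies beyond Smarcal1, were among them. Between 60 and 70 Mb, 5 of 34 were called (14.7%). The highest share in such a window with at least 20 tested genes was 17.8%, on chromosome 6. Why calls were more frequent in some windows was not tested.

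The largest increase after Mreg was in an imprinted non-coding RNA, Meg3. Meg3 is the maternally expressed long non-coding RNA of the Dlk1-Dio3 region on chromosome 12, and Rian and Mirg are the RNAs made further along the same cluster, which host small RNAs. Meg3 read 11.93, 13.09 and 13.43 in line 20b, 9.74, 10.09 and 11.64 in line 41, and 9.78, 9.84 and 9.97 in wild type (lowest, median, highest). The lines did not overlap, with mouse 6 the lowest of line 20b and the mouse also numbered 6 the highest of line 41. The difference was 2.63 (SE 0.33, adjusted p = 0.00129, 6.18-fold). Line 20b was above wild type by 3.11 (adjusted p = 3.61e-07), and line 41 was not called (0.49, adjusted p = 0.335).

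Meg3 has 10 further probe sets, and the picture depended on the probe set. In a fit of every probe set, 4 more were called at 2.05 to 2.92, and the others tested read -0.06 to 0.30 and were not called. Rian was higher in line 20b (7.03, 8.42 and 8.94 against 6.92, 7.02 and 7.13, difference 1.22, adjusted p = 0.0183), with 1 line 20b mouse inside the line 41 range. Further Rian probe sets differed by 2.06 (adjusted p = 0.0250) and 0.35 (not called). Mirg differed by 1.21 (adjusted p = 0.177) with line 20b mouse 3 at 10.27 far above the rest of its line. Without that mouse its difference was 0.70 (adjusted p = 0.0464). Of the 3 tested genes of the region, 2 were called higher (66.7% against 5.44% of all genes), and Dlk1, the paternally expressed gene, was below the filter.

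Among 17 tested genes of other imprinted regions, 1 was called higher and 2 lower (17.6% against 5.44% of all genes), with a median of 0.02. Peg3, a paternally expressed zinc finger gene, read 12.72, 12.85 and 12.99 in line 20b and 11.72, 11.94 and 12.22 in line 41 (0.91, SE 0.09, adjusted p = 0.000429). The lines were well apart, 2 further probe sets differed by 0.60 and 1.05, and line 41 was not called against wild type (0.15, adjusted p = 0.440). Cdkn1c, the cell cycle inhibitor p57, read 9.71, 9.77 and 9.79 in line 20b, 10.21, 10.65 and 11.10 in line 41, and 10.05, 10.24 and 10.41 in wild type. It was lower in line 20b than in line 41 (-0.87, SE 0.12, adjusted p = 0.00281), and the lines lay on opposite sides of wild type (-0.46 and 0.40, adjusted p = 0.00767 and 0.0341). Only Mreg, Cdkn1c, Ammecr1l and Cd99 were called in opposite directions against wild type in the 2 lines; the last 2 were picked out after their values were seen. The third called gene, the amino acid transporter Slc38a4 (-0.61, adjusted p = 0.0240), lost its call when any of 5 single mice was left out. These were line 20b mice 1, 2 and 4 and line 41 mice 1 and 2, with differences of -0.58 to -0.56. Another Slc38a4 probe set differed by -1.76 (adjusted p = 0.0139 in the limma fit of every probe set).

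**Figure D3:**
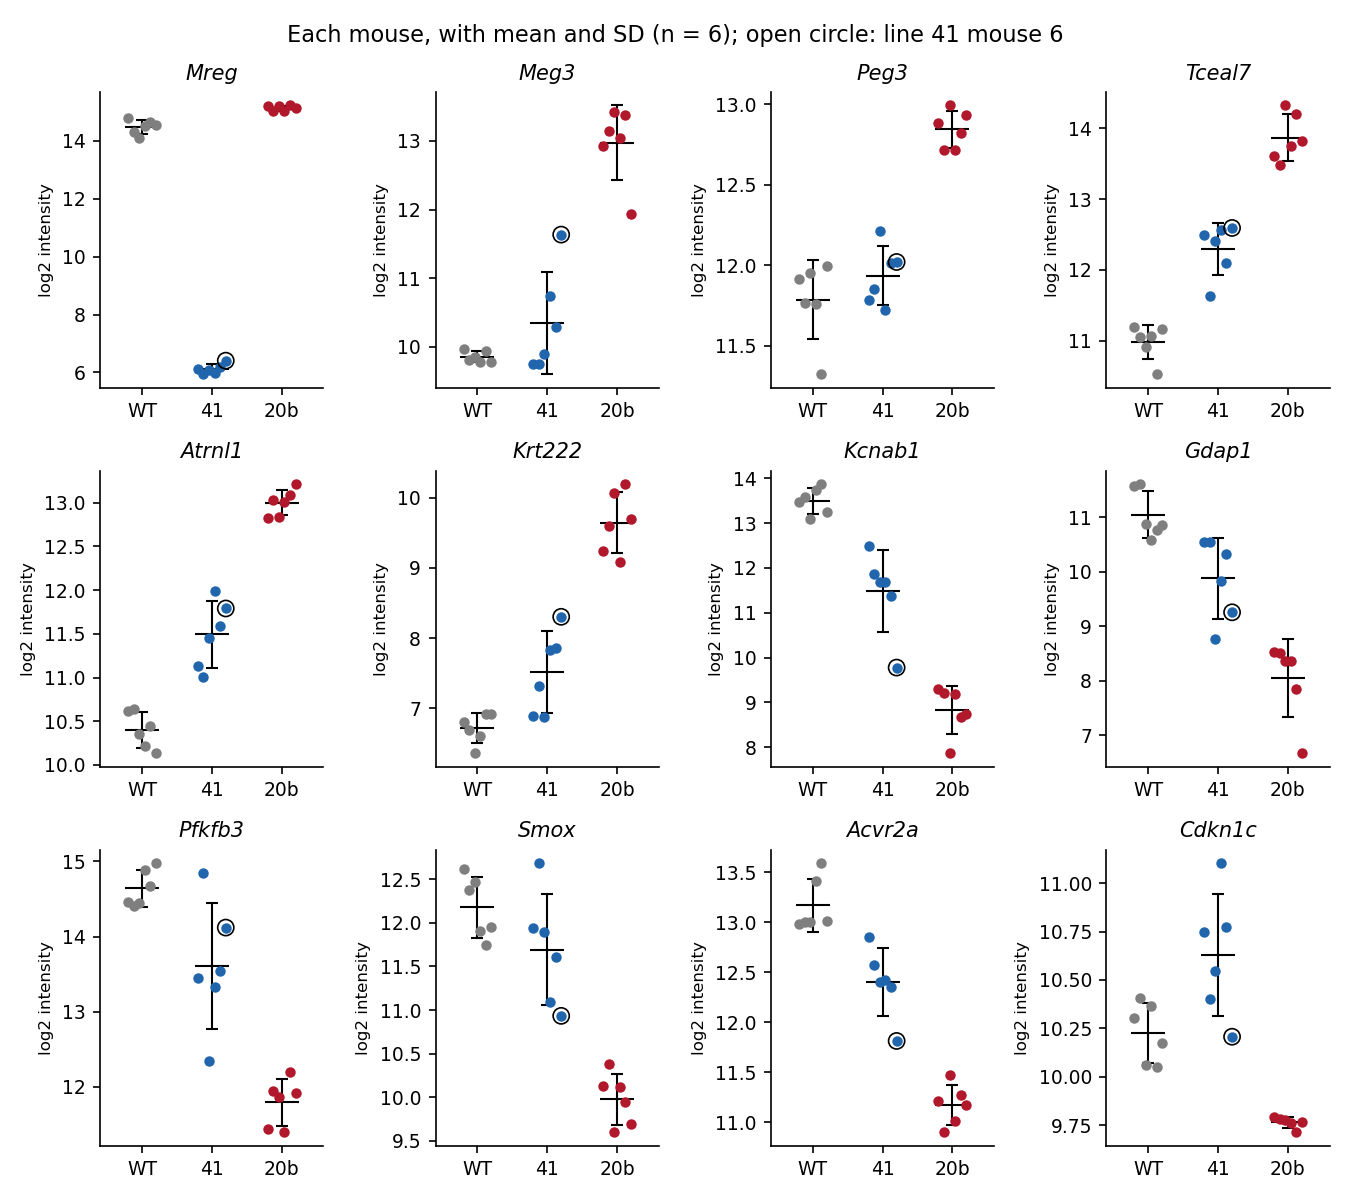
Level of 12 named genes (vertical axes, log2 intensity) in each wild-type (grey), line 41 (blue) and line 20b (red) mouse, with the mean as a bar and the SD as whiskers; n = 6 per group, and line 41 mouse 6 is circled. Mreg and Cdkn1c have line 41 and line 20b on opposite sides of wild type, whereas in Tceal7, Atrnl1, Kcnab1 and Acvr2a line 41 lies between wild type and line 20b.

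Other large increases in line 20b were in genes of varied function. Gys2 encodes the liver form of glycogen synthase, and it read 10.07, 10.89 and 11.25 in line 20b against 7.27, 8.003 and 9.79 in line 41 (2.50, SE 0.41, adjusted p = 0.00533). The lines did not overlap, but the wild types spread from 7.23 to 11.11 and covered most of both. Neu2, a cytosolic sialidase, read 10.14, 10.27 and 10.71 against 7.32, 7.80 and 9.13 (2.27, SE 0.28, adjusted p = 0.00123). The wild types were lower still, at 3.76 to 7.46.

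Krt222, a keratin-like gene, read 9.09, 9.65 and 10.19 against 6.88, 7.58 and 8.30 (2.13, SE 0.26, adjusted p = 0.00128), and its second probe set differed by 1.70. Scube2, a secreted protein that helps release lipid-modified hedgehog ligands, was higher by 2.03 (adjusted p = 0.00206). Atp1b4, whose protein resembles beta subunits of the sodium pump, was higher by 1.84 (adjusted p = 0.0124). In each of these 3 genes the lines did not overlap, and line 41 was itself called above wild type, by 0.80, 0.97 and 2.01.

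Nectin3, a cell adhesion molecule, differed by 1.62 and at a second probe set by 2.34. Tceal7 read 13.49, 13.79 and 14.32 in line 20b and 11.64, 12.45 and 12.59 in line 41 (1.57, SE 0.18, adjusted p = 0.00091), with wild types at 10.53 to 11.19. Atrnl1 read 12.83, 13.02 and 13.21 against 11.01, 11.52 and 11.99 (1.51, SE 0.15, adjusted p = 0.000479), with wild types at 10.13 to 10.64. Both genes thus ran in 3 separate bands, wild type lowest and line 20b highest. Serpinb1a, an inhibitor of neutrophil proteases (1.56), and Hectd2os, a non-coding RNA (1.53), were ordered the same way by their means. The collagen gene Col24a1 (2.31, adjusted p = 0.0256), the deacetylase gene Hdac9 (1.51, adjusted p = 0.0398) and Rhpn2 (1.39, adjusted p = 0.0325) were also called. Their calls were lost without 6, 8 and 5 of the single mice, line 41 mouse 2 among them for all 3, with adjusted p of up to 0.0604, 0.0821 and 0.0746 and differences of at least 2.14, 1.44 and 1.29.

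Kcnab1, a beta subunit of voltage-gated potassium channels, showed the largest decrease. It read 7.86, 8.96 and 9.30 in line 20b, 9.78, 11.68 and 12.49 in line 41, and 13.09, 13.53 and 13.86 in wild type. The 3 groups did not overlap, and line 41 mouse 6 was the lowest of its line. The difference was -2.65 (SE 0.38, adjusted p = 0.00316, 6.29-fold lower). A second probe set read 3.07 to 4.73 in line 20b, under an intensity of 32 in every mouse, 8.06 to 11.48 in line 41 and 11.41 to 12.31 in wild type. There line 41 was at least 32.6-fold above line 20b, taking 32 as the line 20b level. Which Kcnab1 transcripts each probe set reads was not tested.

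Gdap1, a mitochondrial outer membrane protein gene mutated in a hereditary neuropathy, read 6.67, 8.36 and 8.52 in line 20b and 8.76, 10.07 and 10.55 in line 41 (-1.83, SE 0.37, adjusted p = 0.0151). Its other probe sets differed by -2.32, -1.78 and 0.14, so 3 of 4 gave the same direction. Hmga2-ps1, annotated as a pseudogene of Hmga2, read 9.19, 9.59 and 10.20 against 10.88, 11.72 and 13.06 (-2.21, SE 0.33, adjusted p = 0.00343). Its reads cannot be separated here from those of near-identical copies. Pfkfb3, the enzyme that makes the strongest activator of glycolysis, read 11.40, 11.89 and 12.20 against 12.35, 13.49 and 14.85 (-1.81, SE 0.32, adjusted p = 0.00758). A second Pfkfb3 probe set differed by -2.15. In these 3 genes the lines did not overlap.

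Smox, spermine oxidase, read 9.60, 10.04 and 10.38 against 10.93, 11.75 and 12.68 (-1.71, SE 0.25, adjusted p = 0.0036). All line 20b mice were below all line 41 mice, and line 41 was not called against wild type (-0.49, adjusted p = 0.238). A second Smox probe set differed by -0.89 (adjusted p = 0.109). Hpgd, which inactivates prostaglandins, was lower in line 20b (-1.60, adjusted p = 0.0129) with overlapping ranges, but here line 20b was not called against wild type (-0.22) and line 41 was above it (1.38, adjusted p = 0.0254). Pla2g7, which hydrolyses platelet-activating factor, read 7.60, 8.28 and 8.57 in line 20b, 9.03, 9.50 and 10.46 in line 41 and 11.05, 11.33 and 11.82 in wild type (-1.47, SE 0.23, adjusted p = 0.00394). Its 3 groups did not overlap.

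Further down the order, Acsl3 (-1.41), Cpeb1 (-1.37) and Tmem100 (-1.36) were lower in line 20b, while line 41 was not called against wild type (-0.12, -0.33 and -0.22). Acsl3 activates long-chain fatty acids and Cpeb1 binds the tails of stored messenger RNAs. Acvr2a, a receptor for activins and myostatin, was lower by a difference of -1.23 (SE 0.15, adjusted p = 0.00106) and Pdlim7, a scaffold of the actin cytoskeleton, by -1.15 (SE 0.14, adjusted p = 0.00129). For both, line 41 was between wild type and line 20b, with -0.77 and -0.86 against wild type. Other probe sets of Pdlim7 (-0.51 and 0.01) and of Acsl3 (-1.10) were not called. Ripor2 (-1.45, adjusted p = 0.0216) lost its call without line 20b mouse 5 (-1.36) or line 41 mouse 2 (-1.33), the potassium channel gene Kcnk2 (-1.38, adjusted p = 0.0287) without any of 4 single mice and the glucose transporter gene Slc2a3 (-1.26, adjusted p = 0.0291) without any of 7.

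Clcn1, the chloride channel gene, was lower in line 20b than in line 41, and the Mbnl1 and Mbnl2 probe sets used were not called. Clcn1 read 11.17, 11.32 and 11.53 in line 20b, 11.58, 11.80 and 12.08 in line 41, and 12.02, 12.29 and 12.62 in wild type. Line 20b was below every line 41 mouse (-0.49, SE 0.09, adjusted p = 0.00891), and both lines were below wild type (-0.95 and -0.46, adjusted p = 1.84e-06 and 0.00657). Mbnl1 (0.03, adjusted p = 0.810) and its relative Mbnl2 (-0.01, adjusted p = 0.967) were not called at the probe set used. A dimmer Mbnl1 probe set was lower in line 20b (-0.63, adjusted p = 0.0210 among all probe sets), at 10.68 to 11.13 against 11.11 to 11.98.

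Of 31 tested splicing regulators, 1 was called higher and 2 lower (9.68% against 5.44% of all genes, median 0.02 against 0.00). Rbfox2 was higher in line 20b (0.66, adjusted p = 0.0119), at 11.85, 12.02 and 12.32 against 11.02, 11.40 and 11.79. Celf2 was lower (-0.63, adjusted p = 0.00515), at 12.75, 12.80 and 12.89 against 13.15, 13.44 and 13.77, and Rbfox1 was lower (-0.34, adjusted p = 0.0133). The lines did not overlap in any of the 3 genes, whose products bind RNA and direct exon choice. Averaged over all probe sets of the gene, Rbfox1 (-0.16, adjusted p = 0.128) and Rbfox2 (0.02, adjusted p = 0.921) lost their calls, and further probe sets of Rbfox2 differed by 0.00 and 0.02. Celf2 lost its call at the probe set brightest over all experiments (-0.42, adjusted p = 0.0648). Of 35 transcripts known to be spliced by MBNL1, 3 were called higher and 4 lower (20% against 5.44% of all genes, median 0.02), among them the phosphorylase kinase subunit Phka1 (-0.43, adjusted p = 0.00515). That count was 4 without line 20b mouse 5 or line 41 mouse 5. These are levels at 1 probe set, not exon inclusion.

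In the lists of ion channels and of calcium handling a larger share was called than among all genes. The lists were chosen with earlier results of these data known, so this excess is a description and was not tested. Of 26 tested channels and pumps, 4 were called higher and 3 lower, 26.9% against 5.44% of all genes, with a median of -0.02. Beside Kcnab1, Clcn1 and Atp1b4 they included the fast potassium channel genes Kcnc1 (0.49, adjusted p = 0.00851) and Kcnc4 (0.50, adjusted p = 0.0210), both of which lay above every line 41 mouse in line 20b. The call of Kcnc4 was lost with the mean of all its probe sets (0.31, adjusted p = 0.0539). Calcium handling, with the coupling of excitation to contraction, had 1 gene called higher and 6 lower of 32 tested (21.9%, median -0.07). Cacna2d1, a subunit of the calcium channel that senses voltage in the fibre, was lower (-0.38, adjusted p = 0.00663), at 13.34, 13.56 and 13.68 against 13.78, 13.93 and 14.04. Its other probe sets differed by -0.18 to 0.35 and were not called, and the Cacna2d1 call was lost with their mean (-0.03, adjusted p = 0.806). Casq1, the calcium store protein calsequestrin of fast fibres, was lower too (-0.23, adjusted p = 0.0211). With the replicate number as a block that call was lost (adjusted p = 0.0629).

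**Figure D4:**
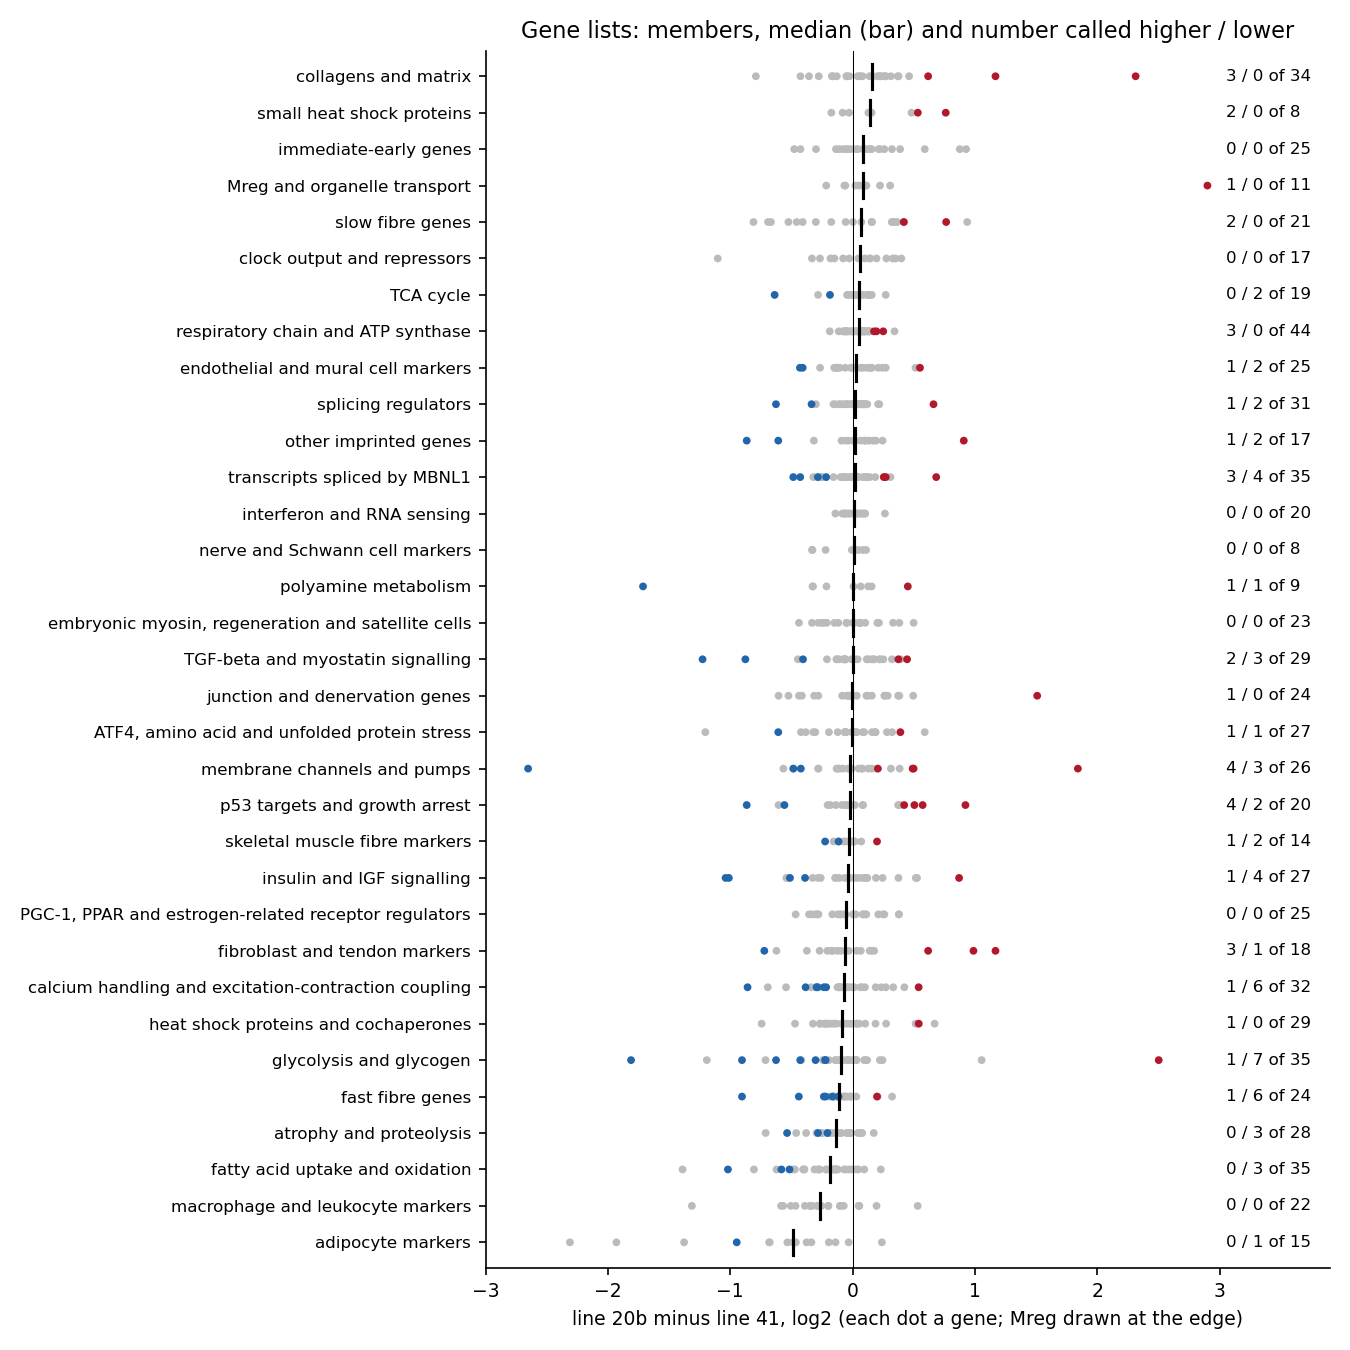
Difference between the lines (horizontal axis, log2) for the tested members of each list with at least 8 tested genes; red dots were called higher and blue dots lower in line 20b, grey dots were not called, black bars are list medians, and the counts at the right are called higher / lower of tested. Mreg (9.02) is drawn at the right edge. The medians run from -0.49 for adipocyte markers to 0.16 for collagens and matrix.

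Of 35 tested genes of glycolysis and glycogen, 7 were called lower in line 20b and 1, Gys2, higher, 22.9% against 5.44% of all genes, with a median of -0.10. Pygm, muscle glycogen phosphorylase, read 14.92, 15.04 and 15.18 against 15.25, 15.27 and 15.37 (-0.22, SE 0.05, adjusted p = 0.0174). Gpd1 (-0.90, adjusted p = 0.0136) and Gpd2 (-0.63, adjusted p = 0.000274), the cytosolic and mitochondrial glycerol-3-phosphate dehydrogenases that together form a shuttle for reducing equivalents, were both lower. Gpd2 read 13.39, 13.45 and 13.54 against 13.95, 14.12 and 14.22, with no overlap, whereas Gpd1 overlapped. The count for the list was 7 to 9 when single mice were left out. Averaged over probe sets Gpd2 was not called (-0.23, adjusted p = 0.115).

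Among genes that take up and oxidise fatty acids, 31 of 35 tested had a difference below 0 (48.8% of all tested genes did). The median was -0.18, but 3 were called, all lower (8.57% against 5.44% of all genes). Hadha, a subunit of the enzyme complex of mitochondrial fatty acid oxidation, read 13.55, 13.90 and 14.02 against 14.05, 14.49 and 14.57 (-0.58, SE 0.10, adjusted p = 0.00613). There line 41 was above wild type (0.40, adjusted p = 0.0120) and line 20b was not called (-0.18). Lipe, hormone-sensitive lipase (-1.02), and Fabp3, the muscle fatty acid binding protein (-0.52), were called with all mice and lost the call without 8 and 9 of the single mice. The list's count was 1 without line 20b mouse 1, 2, 3, 4 or 6 or line 41 mouse 2 or 4, but 5 without line 41 mouse 1 and 6 without line 41 mouse 3. Of 15 adipocyte markers tested 1 was called (6.67%), Cidec, lower, 14 were below 0 and the median was -0.49. Without line 41 mouse 3, 4 were called, and 0 without any of 10 other mice. Their mean level was 11.02 to 11.65 in line 20b, 10.72 to 13.15 in line 41 and 11.63 to 13.73 in wild type. Adipoq, which defines fat cells, differed by -0.68 (adjusted p = 0.287). The part of fat cells in the result was not tested.

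Of 24 fast fibre genes, 6 were called lower and 1 higher (29.2% against 5.44% of all genes, median -0.11). But the count was 2 without line 20b mouse 6 or line 41 mouse 2. It was 3 or 4 without line 20b mouse 3 or 5 or line 41 mouse 1, 3, 4 or 5. Of 21 slow fibre genes, 2 were called higher (9.52%, median 0.07). Smtnl1, a smoothelin-like protein that modulates contraction, read 13.75, 13.84 and 13.92 in line 20b, 12.74, 13.15 and 13.24 in line 41 and 11.55, 12.05 and 12.75 in wild type (0.76, SE 0.08, adjusted p = 0.00048). Mybpc1, the slow form of myosin-binding protein C, was higher as well (0.42, SE 0.07, adjusted p = 0.00533), without overlap. The slow myosin gene Myh7 was not called (-0.46, adjusted p = 0.468). Of 44 respiratory chain and ATP synthase genes 3 were called (6.82%, median 0.05, 12 below 0), all higher, by 0.18 to 0.25, and the count was 0 without line 20b mouse 2, 4 or 5 or line 41 mouse 1, 2 or 3 (10 had an unadjusted p under 0.05 by limma with all mice). Of 19 tricarboxylic acid cycle genes 2 were called lower (10.5%, median 0.05, 6 below 0), and 0 were without line 20b mouse 4 or line 41 mouse 2 (7 had an unadjusted p under 0.05 by limma with all mice).

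Stress and growth genes changed in both directions. Of 8 small heat shock proteins 2 were called higher (25% against 5.44% of all genes, median 0.14), in every fit without a single mouse too. Hspb7 read 13.95, 14.11 and 14.60 against 13.04, 13.41 and 13.86 (0.76, SE 0.14, adjusted p = 0.00841), and Hspb3 13.79, 13.83 and 14.28 against 13.20, 13.38 and 13.49 (0.53, SE 0.08, adjusted p = 0.00391). Both chaperones are made mainly in muscle, and both were apart between the lines. The call of Hspb7 was lost with all 18 mice in the fit (adjusted p = 0.0704). Of 29 heat shock proteins and cochaperones 1 was called (3.45%), Hspa2 (0.54, adjusted p = 0.0103), and 2 without line 20b mouse 2 or 3 or line 41 mouse 3 or 6. The mean over the 8 small heat shock proteins was highest in mouse 3 of both lines (14.41 and 14.17).

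Of 20 p53 targets and growth arrest genes, 4 were called higher and 2 lower (30% against 5.44% of all genes, median -0.02). Eda2r, the receptor for ectodysplasin A2, read 13.56, 13.64 and 14.35 in line 20b, 12.35, 12.89 and 13.45 in line 41 and 10.17, 10.52 and 10.76 in wild type (0.92, SE 0.17, adjusted p = 0.0102). The 3 groups did not overlap. Mdm2, which marks p53 for degradation, was lower in line 20b (-0.56, adjusted p = 0.00498), at 11.51, 11.74 and 12.001 against 12.10, 12.32 and 12.55. At the Mdm2 probe set brightest over all experiments the difference was -0.23 (adjusted p = 0.221). The called members of the list thus differed in direction.

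In insulin and IGF signalling, 4 of 27 tested genes were called lower and 1 higher (18.5% against 5.44% of all genes, median -0.04). Igfbp5, a secreted binding protein of the insulin-like growth factors, read 11.80, 12.33 and 12.63 in line 20b, 12.95, 13.27 and 13.62 in line 41 and 13.64, 14.05 and 14.39 in wild type (-1.01, SE 0.15, adjusted p = 0.00316). No group overlapped another. Grb14, an adaptor that inhibits the insulin receptor, was higher in line 20b (0.87, SE 0.16, adjusted p = 0.0105), at 12.02, 12.28 and 12.49 against 10.65, 11.53 and 11.77. Igf1 itself was called (-1.04, adjusted p = 0.0417) with overlapping ranges, and lost the call without any of 9 mice, line 20b mouse 5 and line 41 mouse 2 among them, with differences of -1.11 to -0.83. It was also lost with all 18 mice in the fit (adjusted p = 0.0814) and with the replicate block (adjusted p = 0.0974). The list's count was 3 without line 20b mice 1, 3, 4 or 5 or line 41 mice 1 or 2.

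In TGF-beta and myostatin signalling, 3 of 29 were called lower and 2 higher (17.2% against 5.44% of all genes, median 0.00). Beside the receptor Acvr2a, whose second probe set differed by -1.16, Smad3, the transcription factor that carries the signal to the nucleus, read 11.56, 11.70 and 11.90 in line 20b and 12.24, 12.58 and 12.92 in line 41 (-0.88, SE 0.11, adjusted p = 0.00128). The other Smad3 probe sets differed by -1.34 and -2.70, so all 3 gave the same direction. Tgfb3, a ligand, was higher (0.45, adjusted p = 0.0229), a call lost without line 41 mouse 2 (0.42, adjusted p = 0.0537). Without that mouse the list's count was 2, and it was 3 without line 20b mouse 2 or line 41 mouse 1 or 5. Of 9 genes of polyamine metabolism, 1, Smox, was called lower and 1, Sat1, higher (22.2% against 5.44% of all genes). Sat1, which starts polyamine breakdown by acetylation, differed by 0.45 (adjusted p = 0.0217). Sat1 lost its call without line 20b mouse 5 (0.43, adjusted p = 0.0507).

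Of 34 collagens and matrix genes 3 were called, all higher (8.82% against 5.44% of all genes, median 0.16). The count was 5 without line 41 mouse 6 and 2 without line 20b mouse 2, 4 or 6 or line 41 mouse 2. Cilp, a cartilage matrix protein, read 12.38, 12.75 and 13.39 in line 20b, 10.98, 11.72 and 12.46 in line 41 and 8.28, 8.66 and 9.34 in wild type (1.17, SE 0.23, adjusted p = 0.0136). With the replicate number as a block its adjusted p was 0.0543. Thbs4, thrombospondin 4 (0.62, SE 0.11, adjusted p = 0.00891), was higher with a slight overlap. Tppp3, a tubulin-binding protein that marks tendon sheath cells, read 13.26, 13.42 and 13.62 against 11.98, 12.53 and 12.57 (0.99, SE 0.10, adjusted p = 0.00048). The lines were clear of each other, and wild types read 9.91 to 11.64. Of 18 fibroblast and tendon markers 3 were called higher and 1 lower (22.2%, median -0.06), and their mean level was 11.57 to 12.29 in line 20b and 11.50 to 12.23 in line 41. The lower one was Pi16, a marker of fibroblasts (-0.72, adjusted p = 0.0233), which lost its call without line 20b mouse 4 (-0.66, adjusted p = 0.0516).

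Markers of other cells differed by list. None of 22 macrophage and leukocyte markers was called by limma (9 had an unadjusted p under 0.05), with 17 below 0, a median of -0.27 and mean levels of 9.36 to 9.69 in line 20b and 9.62 to 10.16 in line 41. Of 25 endothelial and mural cell markers 1 was called higher and 2 lower (12% against 5.44% of all genes), and 0 were without line 20b mouse 5 or line 41 mouse 1 (5 had an unadjusted p under 0.05 by limma with all mice). Their mean levels were 10.48 to 10.82 in line 20b and 10.38 to 10.84 in line 41. None of the 8 nerve and Schwann cell markers or 2 blood cell markers was called by limma (1 and 0 had an unadjusted p under 0.05). Nor was any of 20 interferon, 17 clock, 25 immediate-early, 23 embryonic and satellite cell or 25 PGC-1 and PPAR regulator genes by limma, of which 0, 5, 5, 1 and 8 had an unadjusted p under 0.05. Of 28 atrophy and proteolysis genes 3 were called lower (10.7%, median -0.14), and 1 was without line 20b mouse 4 or 5 or line 41 mouse 2, 3 or 5. Of 24 junction and denervation genes 1 was called (4.17%), Hdac9, and 3 were without line 41 mouse 6. The junction list's count was 0 without line 20b mouse 2, 3, 4, 5 or 6 or line 41 mouse 1 or 2 (6 had an unadjusted p under 0.05 by limma with all mice). Of 27 genes of the ATF4 and unfolded protein stress response 1 was called higher and 1 lower (7.41%). Without line 41 mouse 3, 5 were called, and 0 without line 20b mouse 1 or 2 (6 had an unadjusted p under 0.05 by limma with all mice).

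Another question is whether genes that differ between the lines also differ when Mbnl1 is missing. The Mbnl1-null mice and their wild types share no animal with the 2 lines. Of 388 genes called higher in line 20b and tested there, 191 were called higher in Mbnl1-null muscle and 0 lower by limma (3 lower at an unadjusted p under 0.05), 49.2% higher against 8.2% of all 8755 shared genes. Of 286 called lower in line 20b, 128 were called lower there and 1 higher, 44.8% against 8.24%. These 191 and 128 genes are 26.6% and 17.8% of all genes called higher and lower in Mbnl1-null muscle among the shared genes. Among genes at least 2-fold apart, 27 of 31 higher and 16 of 25 lower genes were called the same way. Eda2r (3.96), Atp1b4 (3.65), Tceal7 (2.69) and Neu2 (2.19) were higher in Mbnl1-null muscle, and Kcnab1 (-4.43), Hmga2-ps1 (-4.26), Pdlim7 (-2.66) and Gdap1 (-2.09) lower. Meg3 was higher there too (1.95, adjusted p = 0.000834). Peg3 (0.35, adjusted p = 0.202), Rbfox2 (0.01), Cdkn1c (0.17) and Tmem100 (0.00) were not called there.

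The same genes were looked up in the Clcn1-null mice, which have myotonia from loss of the channel and no repeat RNA. Of 404 genes called higher in line 20b, 28 were called higher in Clcn1-null muscle (6.93% against 2.35% of 11836 shared genes) and 22 lower (5.45% against 3.46%). Of 281 genes called lower, 60 were called lower (21.4% against 3.46%) and 5 higher (1.78% against 2.35%). Among genes at least 2-fold apart, 5 of 36 higher genes were called higher there and 7 lower. Of 24 lower genes, 10 were called lower and 2 higher. The median change of genes called lower in line 20b was -0.42 in Clcn1-null and -0.37 in Mbnl1-null muscle. For genes called higher in line 20b it was 0.02 and 0.42. Among genes called lower in line 20b, Gdap1 (-6.80), Pla2g7 (-4.71), Smox (-3.18) and Igfbp5 (-3.05) were lower in Clcn1-null muscle. Among those called higher, Col24a1 (-4.85), Rhpn2 (-3.001) and Krt222 (-2.20) were called lower there, while Gys2 (2.05), Meg3 (1.84) and Smtnl1 (1.48) were called higher. The Clcn1-null mice and their wild types are BALB and the Mbnl1-null mice and theirs FVB, on other array types. Strain and array type thus cannot be told apart from genotype between the 2 null experiments. The Clcn1-null experiment also had fewer mice per group. The difference between the 2 null experiments was not tested.

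**Figure D5:**
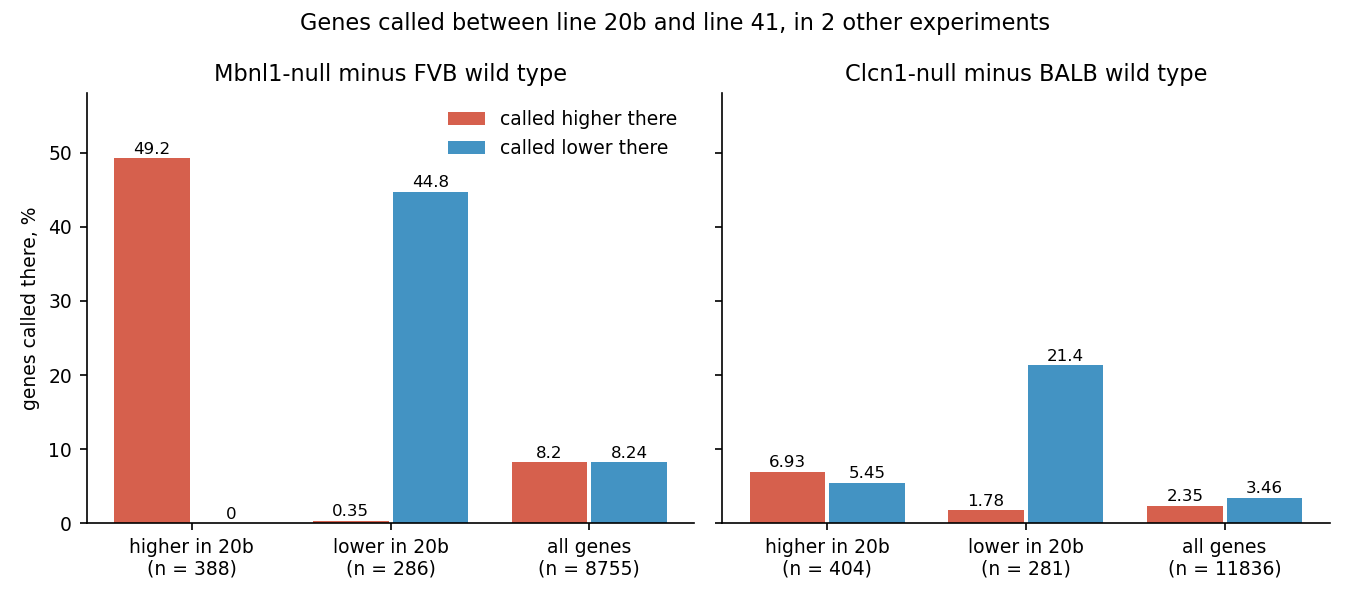
Share of genes called higher (red) and lower (blue) in Mbnl1-null (left) and Clcn1-null muscle (right) among genes called higher in line 20b, called lower in line 20b, and all shared genes (vertical axis, %; n is the number of genes). In Mbnl1-null muscle 49.2% of the first set was called higher and 44.8% of the second lower.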

How the data were processed

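Total RNA of quadriceps was labelled with biotin and hybridised to the array pair 430A and 430B, per the labels. Each deposited value is a linear intensity of 1 probe set. The authors used GCRMA, per the submitters' processing notes; its version and settings are not given in the sources used here. The values were put on the log2 scale, since the deposited tables are not in log2. The median intensity lay between 398.4 and 437.8 for 430A and between 30.4 and 34.4 for 430B; arrays give no counts, and their number limits the precision. Of 45037 probe sets, 34945 had 1 gene symbol, 932 several and 9160 none in the platform annotation; 34741 symbols were updated through the RefSeq gene table. The probe set with the highest mean over the 12 mice stood for each of 18193 genes, and a gene was tested when it reached log2 5 (an intensity of 32) in at least 6 of the 12 mice.

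Both lines entered 1 limma model (version 3.58.1, R 4.3.3; 1 mean per line, eBayes with a trend, two-sided), with Benjamini-Hochberg adjustment across the 12987 genes of both arrays. Wild-type comparisons used the same fit on 18 mice (13050 genes), the null mice fits of their own. P-values of further probe sets come from a fit of every probe set. Titles number the mice but do not say that numbers join arrays or pair lines. Of 12 mice, 11 matched their own number best between 430A and 430B. The exception was line 20b mouse 5, without which 420 genes were called. The 24 arrays held no identical columns. Nothing in the labels says how the mice relate, so p-values measure the spread between these mice.

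The members and the 35 gene lists (28 of pathways, 7 of cell markers) were chosen with earlier results of these data known. A larger share of calls in a list than among all genes is thus a description and not a test. Named genes are Mreg, Meg3, Clcn1, Mbnl1, Mbnl2 and Acta1, the 15 largest called differences each way without clone names, up to 4 called members of each list, 5 genes on each side of Mreg and the Dlk1-Dio3 region; some were left out for length. In a simulation with 50 altered genes at each size, the fit called 60%, 90%, 94% and 98% at log2 changes of 0.5, 1, 1.5 and 2, and 4.47% of calls were false. Its noise was normal and independent between genes, with no mouse between the lines. The 4.47% is thus not an estimate of the false share of the reported calls. Alternatives were other scalings, filters, probe set choices, eBayes settings and thresholds, blocking by replicate number, and dropping single mice.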

Additional observations from a re-analysis of the deposited data

Results flagged for a closer look

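Each line's 6 values were examined by Dixon's rule for 1 mouse far from the others, for the tested named genes and the mean of each gene list. Of 272 groups examined, 17 held such a mouse; chance gives about 1 in 20. In line 20b these were Meg3 in mouse 6 (11.93, the others 12.92 to 13.43), Col24a1 in mouse 3 (6.71, the others 8.07 to 8.52), Gdap1 in mouse 6 (6.67, the others 7.85 to 8.52) and Cpeb1 in mouse 2 (10.52, the others 9.77 to 10.01). Mouse 3 of line 20b was also apart in Hspb3 (14.28, the others 13.79 to 13.86), Ube2b, a ubiquitin-conjugating enzyme (14.58, the others 14.76 to 14.86), Atic (11.87, the others 11.72 to 11.77) and Mirg (10.27, the others 6.60 to 7.84). In line 41 they were Hadha in mouse 6 (14.05, the others 14.44 to 14.57) and Tppp3 in mouse 2 (11.98, the others 12.51 to 12.57). Among list means (log2), mouse 3 of line 20b was highest for calcium handling (13.21, the others 12.99 to 13.06), junction and denervation genes (10.70, the others 10.29 to 10.39) and small heat shock proteins (14.41, the others 13.82 to 13.93), and mouse 1 of line 20b for Mreg and organelle transport (10.63, the others 10.39 to 10.47). Mouse 3 of line 41 was highest for embryonic myosin and satellite cell genes (9.76, the others 9.28 to 9.41) and small heat shock proteins (14.17, the others 13.52 to 13.74), and mouse 1 of line 41 for insulin and IGF signalling (11.67, the others 11.51 to 11.56).

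The effect against wild type differed in sign between the lines for Mreg and Cdkn1c among the named genes. The test of the difference between the lines gave 9.02 for Mreg (adjusted p = 1.73e-16; higher in 6 of 6 line 20b mice) and -0.87 for Cdkn1c (adjusted p = 0.00281; lower in 6 of 6).

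Probe sets with no gene symbol entered no gene comparison. Of 3823 of them tested in the fit of every probe set, 86 were called, 14 of these at least 2-fold apart (9 higher and 5 lower in line 20b), and they are not described singly.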

How the results depend on the processing

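For line 20b against line 41, the 706 calls became 1493 when every probe set was tested separately and 168 at an adjusted p under 0.01, and the 66 calls of at least 2-fold became 151 and 32. Leaving out each mouse in turn gave 420 to 863 calls, and 47 to 84 of at least 2-fold. Against wild type the same gave 2164 to 2610 calls for line 20b and 887 to 1233 for line 41. The labels do not say that numbers pair mice, so the reported fit has no block. Deviations of same-numbered mice of the lines correlated at -0.05 to 0.14 across genes, 3 of 6 pairs above 0.1, and 4 of 12 mice matched their own number best. Mouse 3 was the highest of line 20b, line 41 and wild type alike in the mean of small heat shock proteins, of junction and of embryonic genes, so whether same-numbered mice share something is not settled here. With the replicate number as a block in line 20b against line 41, 573 genes were called, and 20 of the 91 called named genes lost their call. Of those 91, 43 kept their call in all 23 alternatives, 48 lost it in at least 1, and 0 reversed in any of them. Differences of probe sets near an intensity of 32 are limited by background, as on much of 430B, where 49.4% to 51.0% of probe sets reached it.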
